A study of Mus musculus with 8 samples.

Results

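The genes described here are 10 members of the Hippo pathway and its output in newborn mouse lung: the coactivator genes Yap1 and Wwtr1, the TEAD factor genes Tead1, Tead2 and Tead4, the kinase genes Lats1 and Lats2, and the target genes Ccn1, Ccn2 and Ankrd1. They were chosen by symbol, with Ccn1 found on the array under its older name Cyr61 and Ccn2 under Ctgf. All 10 were found, on 14 array features, among 20842 named genes. RNA from 8 whole lungs was hybridised to 1-colour (Cy3) arrays. There were 4 lungs of pups labelled Fgf10+/- (the submitters' group TG), which keep 1 intact copy of Fgf10 (fibroblast growth factor 10, a mesenchymal signal to the lung epithelium), and 4 lungs of wild-type pups. Both groups were on the C57Bl/6J background and breathed 20% oxygen in a chamber between postnatal day 0 and day 3. The labels give the Fgf10 genotype without the kind of allele, and give no sex or litter. The comparison asks which transcripts differ between Fgf10+/- and wild-type lungs in normal air, and here whether those of the Hippo pathway do.

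The Hippo pathway restrains growth through a chain of kinases. The last of these, LATS1 and LATS2, phosphorylate the coactivators YAP (gene Yap1) and TAZ (gene Wwtr1), which keeps them out of the nucleus. Unphosphorylated YAP and TAZ enter the nucleus and bind TEAD proteins, which hold the DNA-binding domain, and together they activate genes such as Ccn1, Ccn2 and Ankrd1. In the lung the pathway is known for its part in airway branching and in the formation of the flat alveolar type 1 cells. Control is largely by phosphorylation and location of the proteins, which an RNA array does not measure.

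The core of the TEAD binding motif is GGAATG, which reads CATTCC on the other strand. Sequences of 250 bases before a transcription start were taken from RefSeq (GRCm38.p6) and held 7 of the 10 genes. Of these, Ankrd1, Ccn1, Yap1 and Wwtr1 had at least 1 match on either strand, 4 of 7, where 14.4% of 27025 genes and 12.6% of 32851 windows of this length had one. The target gene Ccn2 was not among the 7. The promoters of the other 2 target genes are shown. They are printed 5′ to 3′ on the gene's strand, from chr19:36119845-36120094 (minus strand) for Ankrd1 and chr3:145649986-145650235 (minus strand) for Ccn1, with the matches in capitals.
Ankrd1: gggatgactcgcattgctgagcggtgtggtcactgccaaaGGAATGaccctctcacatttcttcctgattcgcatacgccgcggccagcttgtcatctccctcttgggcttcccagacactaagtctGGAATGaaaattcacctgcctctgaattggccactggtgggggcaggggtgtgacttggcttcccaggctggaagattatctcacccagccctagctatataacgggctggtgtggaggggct
Ccn1: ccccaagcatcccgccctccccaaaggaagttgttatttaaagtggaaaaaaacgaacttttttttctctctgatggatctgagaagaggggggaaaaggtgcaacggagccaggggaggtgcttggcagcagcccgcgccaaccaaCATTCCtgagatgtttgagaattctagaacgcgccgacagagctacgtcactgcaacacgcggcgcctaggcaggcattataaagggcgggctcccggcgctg
The Ankrd1 matches began 210 and 123 bases before the start of transcription, and the Ccn1 match 103 bases before it. The 2 coactivator genes are shown by their match with 10 bases on each side, at chr9:8004722-8004747 (minus strand) for Yap1 and chr3:57576031-57576056 (minus strand) for Wwtr1. Both start sites listed for Wwtr1 share this match.
Yap1: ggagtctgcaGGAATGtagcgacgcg
Wwtr1: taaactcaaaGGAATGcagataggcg
A match is a run of letters and not a measured binding site.

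The values are log2 signals that the authors had brought to a common distribution, with a median of 3.47 over all features and a maximum of 15.99. Over the named genes, any pair of arrays had a correlation of 0.977 to 0.986. The alveolar type 2 cell marker Sftpc averaged 15.98 in both groups, at the top of the scale, so lung RNA was present in all libraries. The Fgf10 feature itself was at 7.95 ± 0.32 in the libraries labelled Fgf10+/-, against 7.46 ± 0.40 in wild-type libraries (SD, n = 4 each), and thus not lower. Whether this feature reads the altered stretch of Fgf10 is unknown here, so it gives no check of the genotype, and all directions are those of the labels. Wild-type replicate 4 stood apart from the other 7 libraries by skeletal muscle transcripts: the summed linear signal of 17 marker genes was between 332 and 536 in the libraries labelled Fgf10+/-, 13540 in wild-type replicate 4 and between 427 and 483 in the other wild-type libraries. It also lay apart in lists described below. Among wild-type libraries it was the lowest in 15 of 20 immediate early genes and the highest in 0. It was the highest in 11 of 14 mitotic genes and 7 of 12 fibroblast markers, and the lowest in 0 and 1. These shifts were toward the libraries labelled Fgf10+/-. The members' differences are given with and without this library, as are counts or medians of several lists. Without it, 12.8% of all genes had an unadjusted p under 0.05, beside 11% with all arrays. The libraries labelled Fgf10+/- were then higher in 5.51% of all genes and lower in 7.24%.

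On their brightest features, the core genes of the pathway had small differences, the largest being 0.34 for Lats2, a ratio of 1.26. The 1 member with a large difference there was the target gene Ankrd1. With limma and Benjamini-Hochberg adjustment over all 20842 genes, 0 of the 10 members passed an adjusted p of 0.05, and 0% of all genes did. At an unadjusted p under 0.05 there was 1 member, Ankrd1, or 1 of 10, where 11% of all genes lay under it. The count was 2 in 7 of the 17 alternative settings, among them leaving out wild-type replicate 4 or, in the group labelled Fgf10+/-, replicate 1, and 1 in the other 10. Lats2 was the second gene in 6 of these settings, and Tead1 with its features averaged in 1. The 2 groups overlapped for all 10 members, while 7.39% of all genes had groups that did not overlap (2.99% with the libraries labelled Fgf10+/- higher and 4.4% with them lower). For 8 members the libraries labelled Fgf10+/- had the higher mean, and for Lats1 and Ankrd1 the lower. The median log2 difference was 0.072 over the members and -0.0012 over all genes, and the median size of the difference without its sign was 0.10 over the members and 0.18 over all genes. For 9 members the 95% interval of the log2 difference on the brightest feature lay within -1 and 1. A change by a factor of 2 in either direction was outside these intervals. The dimmest Tead1 feature had an interval of -0.053 to 2.13, which included a rise by a factor of 2. Whole lungs were measured, so fewer cells of a type and less RNA per cell cannot be told apart in any of these values.

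**Figure D1:**
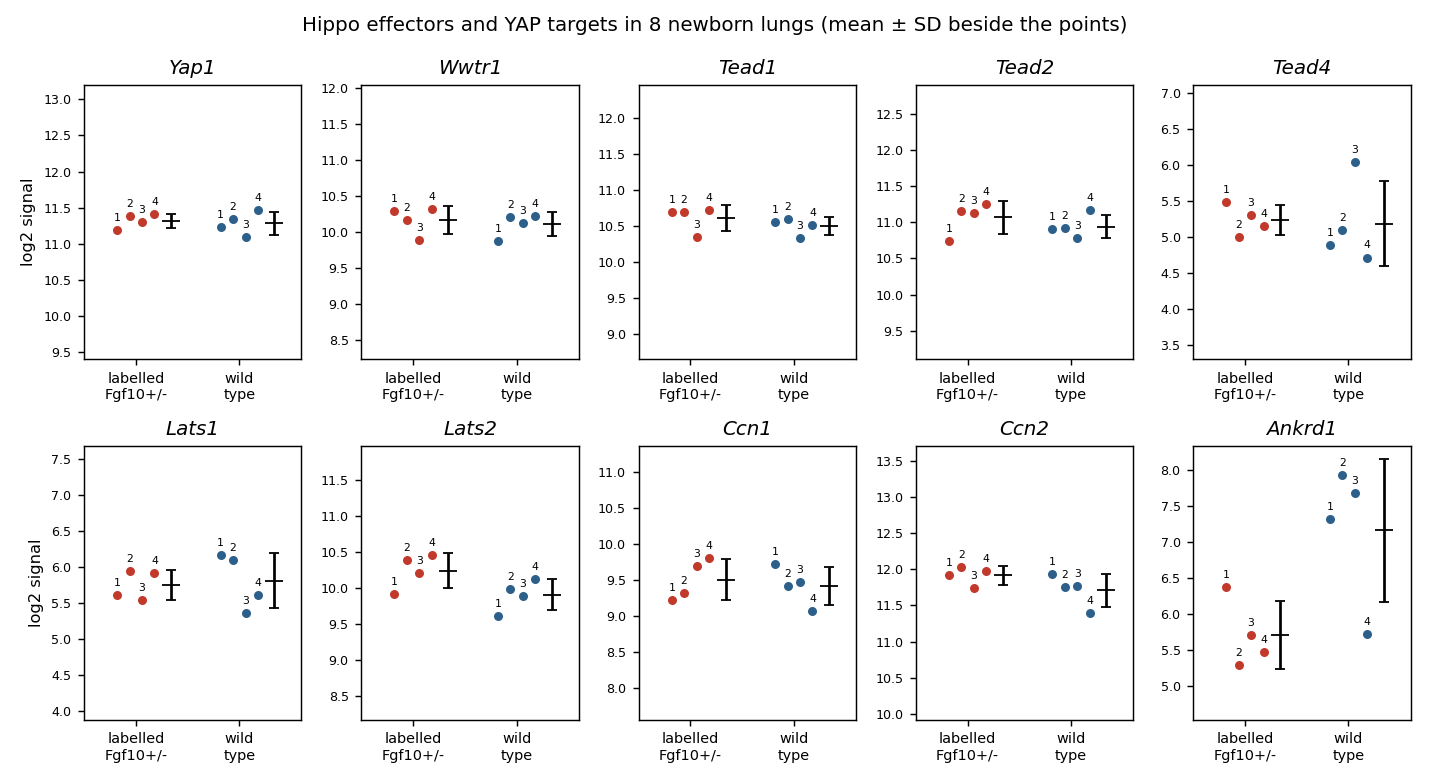
Log2 signal (vertical axis, same span in every panel) of the brightest feature of each of the 10 genes in 4 libraries labelled Fgf10+/- (red) and 4 wild-type libraries (blue), numbered by replicate, with mean ± SD beside them. The groups overlap in every panel, and Ankrd1 lies between 5.29 and 6.37 in the libraries labelled Fgf10+/-, with 3 wild-type libraries between 7.32 and 7.93 and the fourth at 5.72.

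The coactivators had near equal means in both groups. Yap1 measured 11.19, 11.38, 11.30 and 11.41 in the libraries labelled Fgf10+/- (replicates 1 to 4) and 11.22, 11.34, 11.10 and 11.46 in the wild-type libraries. The lowest and the highest value both belonged to wild-type libraries. The log2 difference was 0.037 with a standard error of 0.12 (limma adjusted p = 0.942; two-sided exact permutation p = 0.714, from 70 assignments). As a ratio of the libraries labelled Fgf10+/- over wild type this is 1.03, with a 95% interval of 0.852 to 1.24. The Yap1 difference was 0.097 (SE 0.12) without wild-type replicate 4. Its partner Wwtr1 measured 10.29, 10.16, 9.89 and 10.32 in the libraries labelled Fgf10+/- and 9.87, 10.21, 10.13 and 10.23 in wild-type libraries. Each group had a single library under 10, and the others lay close together. The difference was 0.056 with a standard error of 0.14 (exact permutation p = 0.571; limma adjusted p = 0.922), a ratio of 1.04 with an interval of 0.833 to 1.30. Leaving out wild-type replicate 4 gave 0.095 (SE 0.15).

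Tead1 and Tead2, both brightly measured, had means that were slightly above wild type in the libraries labelled Fgf10+/-, and neither difference passed. TEAD proteins have little activity of their own until a coactivator binds. Tead1 measured 10.69, 10.69, 10.34 and 10.72 in the libraries labelled Fgf10+/- and 10.56, 10.60, 10.33 and 10.51 in wild-type libraries on its brightest feature. Replicate 3 was the lowest library in each group. The difference was 0.11 with a standard error of 0.13 (exact permutation p = 0.371; limma adjusted p = 0.802), and 0.11 also without wild-type replicate 4. Tead2, the family member best known from early embryos and neural progenitors, measured 10.74, 11.16, 11.13 and 11.25 in the libraries labelled Fgf10+/- and 10.90, 10.92, 10.78 and 11.17 in wild-type libraries. The highest and the lowest of these 8 values both came from libraries labelled Fgf10+/-. The difference was 0.13 with a standard error of 0.15 (exact permutation p = 0.429; limma adjusted p = 0.807), and without wild-type replicate 4 it was 0.20 (SE 0.15). The second Tead2 feature differed by 0.23 (SE 0.13), also without passing (limma adjusted p = 0.594 over all named features).

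The 3 Tead1 features had unlike differences. Besides the brightest, the second brightest differed by 0.29 (SE 0.15) and the dimmest by 1.04 (SE 0.48). The dimmest feature was at 5.14, 5.52, 5.87 and 4.89 in the libraries labelled Fgf10+/- and 3.45, 3.96, 4.09 and 5.76 in wild-type libraries. Wild-type replicate 4 lay among the libraries labelled Fgf10+/-, and the other 3 wild-type libraries lay below all of them. Without wild-type replicate 4 the dimmest feature differed by 1.52 (SE 0.27; limma adjusted p = 0.134 over all named features). With all arrays, the difference of the dimmest feature was larger than that of the brightest Tead1 feature by 0.93. This did not pass a comparison of the within-array differences (exact permutation p = 0.171; adjusted p = 0.463 over 9 such comparisons chosen after the values were seen). With 70 assignments the exact p cannot fall below 0.0286, so no single comparison could pass the adjustment over 9 on its own. All 3 features are annotated to the same transcript, and when they were averaged Tead1 differed by 0.48 (limma unadjusted p = 0.0129, adjusted p = 0.305).

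Tead4, known for its role in the first placental lineage, gave a dimmer signal with a wide spread. It measured 5.48, 5.00, 5.30 and 5.15 in the libraries labelled Fgf10+/- and 4.89, 5.10, 6.04 and 4.72 in wild-type libraries. Wild-type libraries held both the highest and the 2 lowest values. The difference was 0.049 with a standard error of 0.28 (exact permutation p = 0.914; limma adjusted p = 0.970), and its sign turned when wild-type replicate 4 was left out (-0.11). Its interval, -0.60 to 0.70, was wider than those of Tead1 (-0.18 to 0.40) and Tead2 (-0.21 to 0.47). The fourth family member on the array, Tead3, is described with the pathway's other genes below.

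The 2 kinase genes did not pass either, and Lats2 came nearest among the core genes on their brightest features. With features averaged, Tead1 had a smaller limma unadjusted p (0.0129) than Lats2 (0.216). LATS2 is both a kinase that inhibits YAP and the product of a YAP target gene, which makes it part of a negative feedback loop. Lats2 measured 9.92, 10.39, 10.22 and 10.46 in the libraries labelled Fgf10+/- and 9.62, 9.99, 9.90 and 10.12 in wild-type libraries. Of the libraries labelled Fgf10+/-, 3 lay above every wild-type library, and replicate 1 lay among them. The difference was 0.34 with a standard error of 0.16 (exact permutation p = 0.0857, where 70 assignments can go down to 0.0286; limma unadjusted p = 0.0713, adjusted p = 0.503), a ratio of 1.26 with an interval that included 1 and reached 1.64. Without wild-type replicate 4 the log2 difference was 0.41 with a 95% interval of 0.0022 to 0.82 (limma unadjusted p = 0.0491, adjusted p = 0.390). The second Lats2 feature, annotated to another transcript of the gene, was dim and differed by -0.0079 (SE 0.19). It measured 5.00, 4.86, 5.12 and 5.29 in the libraries labelled Fgf10+/- and 5.49, 5.18, 4.78 and 4.83 in wild-type libraries. The 2 Lats2 features were not shown to differ in their change (0.35 within arrays, exact permutation p = 0.343, adjusted p = 0.478 over the 9 comparisons).

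Lats1 measured 5.61, 5.95, 5.54 and 5.91 in the libraries labelled Fgf10+/- and 6.17, 6.09, 5.37 and 5.62 in wild-type libraries. Wild-type replicates 1 and 2 were the highest and replicate 3 the lowest of all 8. The difference was -0.060 with a standard error of 0.21 (exact permutation p = 0.743; limma adjusted p = 0.946). The sign was positive in 3 of the 8 fits that left out 1 library: wild-type replicate 1 (0.059), wild-type replicate 2 (0.034) or replicate 3 of the libraries labelled Fgf10+/- (0.011). It was -0.12 (SE 0.23) without wild-type replicate 4. The change of Lats2 minus that of Lats1 within arrays was 0.40 and did not pass (exact permutation p = 0.257, adjusted p = 0.463 over the 9 comparisons).

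**Figure D2:**
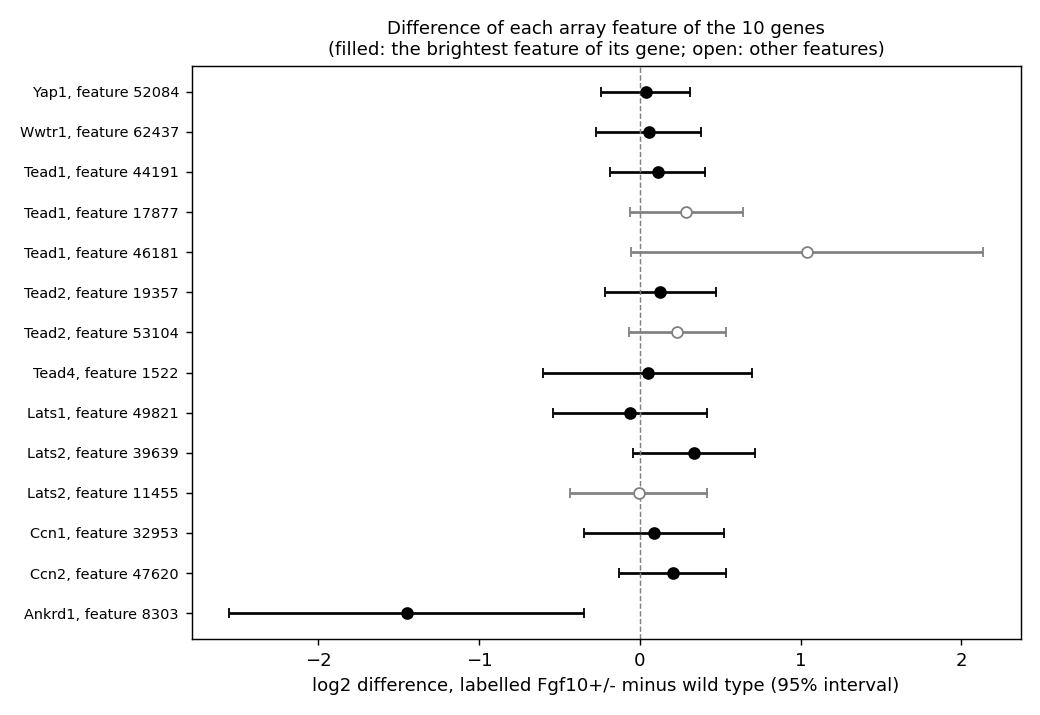
Log2 difference (horizontal axis, libraries labelled Fgf10+/- minus wild type) of all 14 features of the 10 genes, with 95% intervals from the fit over all named features (filled, brightest feature of a gene; open, its other features). The interval lies wholly below 0 for Ankrd1 and includes 0 for the other 13 features.

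The targets Ccn1 and Ccn2 encode secreted matrix proteins that are widely used as readouts of YAP activity, and neither had a lower mean than wild type. Ccn1 measured 9.22, 9.31, 9.69 and 9.80 in the libraries labelled Fgf10+/- and 9.72, 9.42, 9.47 and 9.07 in wild-type libraries. The groups covered almost the same range. The difference was 0.089 with a standard error of 0.19 (exact permutation p = 0.657; limma adjusted p = 0.907), a ratio of 1.06 with an interval of 0.788 to 1.44. Without wild-type replicate 4, its lowest library, it was -0.028.

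Ccn2 measured 11.92, 12.04, 11.74 and 11.98 in the libraries labelled Fgf10+/- and 11.93, 11.76, 11.77 and 11.39 in wild-type libraries. Wild-type replicate 4 was again the lowest of the 8. The difference was 0.20 with a standard error of 0.14 (exact permutation p = 0.200; limma adjusted p = 0.660), a ratio of 1.15 with an interval of 0.919 to 1.44. Without wild-type replicate 4 it was 0.097. Over the 8 libraries Ccn1 and Ccn2 correlated with Pearson's r = 0.49 (exact permutation p = 0.220, adjusted p = 0.659 over 3 pairs of target genes) and Spearman's rho = 0.36 (exact permutation p = 0.389, adjusted p = 0.584). Without replicate 4 of each group, the 2 libraries farthest from the Ccn1 median, r was -0.37 over the narrower range of Ccn1 that was left, and over all 8 libraries with group means removed r was 0.47. The 3 pairs include those of Ankrd1, for which no pooled correlation is given because the Ankrd1 values fell into 2 clusters, from 5.29 to 6.37 and from 7.32 to 7.93, neither of which held 6 libraries.

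Ankrd1 had the lowest difference of the set and, by limma, the only unadjusted p under 0.05. It encodes an ankyrin repeat protein of the nucleus and sarcomere that is abundant in heart muscle and is a standard YAP target in cultured cells. Ankrd1 measured 6.37, 5.29, 5.70 and 5.47 in the libraries labelled Fgf10+/- and 7.32, 7.93, 7.67 and 5.72 in wild-type libraries. Of the wild-type libraries, 3 lay above every library labelled Fgf10+/-, and replicate 4 lay among them. The mean was 5.71 ± 0.47 in the libraries labelled Fgf10+/- and 7.16 ± 0.99 in wild-type libraries (SD, n = 4 each). The log2 difference was -1.45 with a standard error of 0.48 and a 95% interval of -2.56 to -0.34, a ratio of wild type over the libraries labelled Fgf10+/- of 2.73 (limma unadjusted p = 0.0165, adjusted p = 0.316; exact permutation p = 0.0571). The adjusted p ran from 0.0999 to 0.544 over the alternative settings, so the difference did not pass in any of them. It was larger without its sign than that of 99.8% of the genes tested, and 25 genes had a lower difference, while 1087 genes had a smaller p.

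Wild-type replicate 4 set most of the spread of Ankrd1. With 1 library left out in turn the difference lay between -1.93 and -1.19, below 0 each time. The wild-type SD of 0.99 was larger than that of 98.3% of genes. Without wild-type replicate 4 the difference was -1.93 with a standard error of 0.28 (limma adjusted p = 0.0999), from a mean of 5.71 in the libraries labelled Fgf10+/- and 7.64 in the 3 wild-type libraries left. The change of Ankrd1 minus that of Ccn1 within arrays was -1.54, and minus that of Ccn2 it was -1.66, each with an exact permutation p = 0.0571 and an adjusted p = 0.257 over the 9 comparisons. A difference in response between the target genes was thus not shown, and at this number of arrays the adjusted comparison could hardly show one.

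Genes with a profile like that of Ankrd1, with its split of wild-type replicate 4 from replicates 1 to 3, were sought next. Among 10420 genes with a mean signal above the median of named genes, the 3 whose centred profile over the 8 libraries lay nearest to that of Ankrd1 were Eva1c, Cirbp and Sphk1, with root mean square differences of 0.38, 0.38 and 0.42 on the log2 scale, where the profile of Ankrd1 itself had a root mean square of 0.99. Cirbp, an RNA-binding protein induced by mild cold, measured 11.04, 9.92, 9.66 and 9.45 in the libraries labelled Fgf10+/- and 11.60, 11.46, 11.38 and 9.87 in wild-type libraries. Sphk1 encodes the kinase that makes sphingosine 1-phosphate, a lipid known to act on YAP through G protein-coupled receptors. It measured 9.90, 8.89, 8.84 and 8.71 in the libraries labelled Fgf10+/- and 10.44, 10.20, 10.35 and 9.10 in wild-type libraries. In both genes, as in Ankrd1, wild-type replicates 1 to 3 were the highest, replicate 1 of the libraries labelled Fgf10+/- came next, and wild-type replicate 4 lay with the rest. The 3 genes were chosen for likeness over these 8 libraries, so this shared order follows from the choice. Their differences were -1.07 for Eva1c, -1.06 for Cirbp and -0.94 for Sphk1, and none passed (limma adjusted p = 0.342, 0.463 and 0.404). They were -1.42, -1.46 and -1.25 without wild-type replicate 4. The nearest profiles to Ccn1 were those of Mllt10, Trim68 and Msl2, at 0.11 to 0.12, where Ccn1 itself had 0.24. Those nearest to Ccn2 were 3300002I08Rik, Psma4 and Nostrin, at 0.07 each, where Ccn2 had 0.19.

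Muscle and early response genes also differed between the libraries. All 18 cardiac muscle markers had a lower mean in the libraries labelled Fgf10+/-, with a median log2 difference of -0.74, and 12 of them had an unadjusted p under 0.05, all lower, where 6.29% of all genes did. Their summed linear signal ranged from 12521 to 19501 in the libraries labelled Fgf10+/- and from 21949 to 28886 in wild-type libraries, where the 21949 belonged to replicate 4 and the other 3 lay between 26070 and 28886. Of the 18 genes, 1, Nppb, had a mean log2 signal under 3. The mean log2 deviation of the cardiac list from its average over the 8 arrays was -0.52 to -0.075 in the libraries labelled Fgf10+/-. It was 0.51 in wild-type replicate 4, where Ankrd1 was low, and 0.44, 0.30 and 0.14 in wild-type replicates 1 to 3. The 2 measures thus placed wild-type replicate 4 differently, lowest of the wild-type libraries by summed signal and highest by mean deviation. It was the lowest wild-type library in 9 of the 18 genes, among them the bright Myh6, Myl4 and Actc1, and the highest in 6, among them the dim Myl2 (7.64) and Pln (6.51). Without it 11 of the 18 had an unadjusted p under 0.05, all lower, beside 7.24% of all genes. The part of cardiac transcripts in the Ankrd1 difference was not tested. Skeletal muscle markers deviated by -0.67 to -0.32 in the libraries labelled Fgf10+/-, by 3.29 in wild-type replicate 4 and by -0.39 to -0.33 in wild-type replicates 1 to 3. Immediate early genes, which respond to stimuli within minutes, deviated by between -0.51 and 0.05 in the libraries labelled Fgf10+/-, by -0.26 in wild-type replicate 4 and by 0.23, 0.28 and 0.48 in wild-type replicates 1 to 3. The part of immediate early genes in the Ankrd1 difference was not tested.

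**Figure D3:**
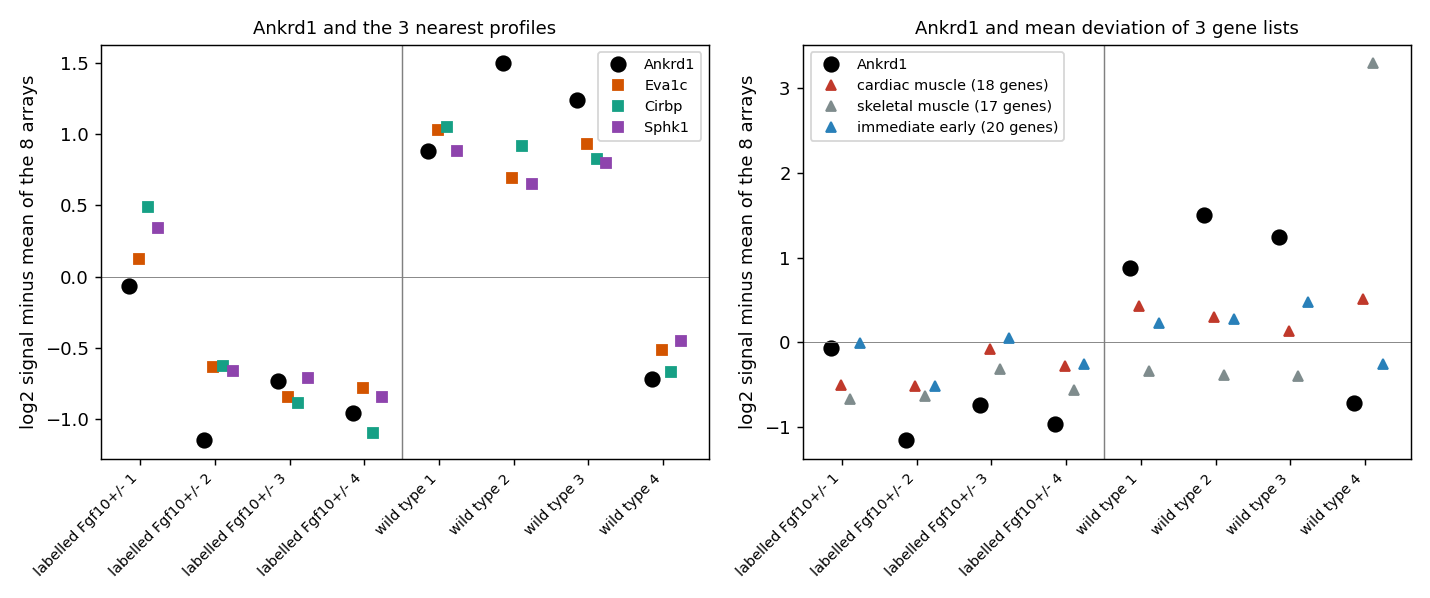
Centred log2 signal (vertical axis, signal minus the mean of the 8 arrays) in 4 libraries labelled Fgf10+/- and 4 wild-type libraries, for Ankrd1 with its 3 nearest profiles (left) and for Ankrd1 with the mean deviation of 3 gene lists (right). Wild-type replicate 4 lies with the libraries labelled Fgf10+/- in Ankrd1 and in its nearest profiles, at 0.51 in the cardiac list, whose summed signal was lowest of the wild-type libraries there, and at 3.29 in the skeletal muscle list.

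The other genes of the pathway divided into both directions. Of 21 measured kinases, scaffolds and upstream regulators, 2 were higher in the libraries labelled Fgf10+/- at an unadjusted p under 0.05 and 2 were lower, 19.0% of the list together, beside 11% of all genes, and 0 passed the adjusted p. The list's median difference was -0.05. Fat4, a giant cadherin linked to Hippo signalling, measured 7.09, 7.33, 7.32 and 7.08 in the libraries labelled Fgf10+/- and 6.61, 6.77, 6.63 and 6.96 in wild-type libraries, a difference of 0.47 (SE 0.13; limma adjusted p = 0.238). Its groups did not overlap. Wwc1, the scaffold KIBRA that helps to activate LATS, measured 9.38, 9.37, 9.15 and 9.24 in the libraries labelled Fgf10+/- and 9.71, 9.60, 9.58 and 9.43 in wild-type libraries, a difference of -0.30 (SE 0.11; limma adjusted p = 0.364), again without overlap. Taok3, a kinase of the family that activates the Hippo kinases, differed by -0.66 (SE 0.24; limma adjusted p = 0.369) without overlap. These 3, named for the smallest p, were the only ones of the 21 without overlap, beside 7.39% of all genes.

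Partners and inhibitors of YAP, TAZ and TEAD had a median of 0.02 over 13 measured genes. An unadjusted p under 0.05 was reached by 0 of them, beside 11% of all genes. Without wild-type replicate 4 there were 2, 1 higher and 1 lower, beside 5.51% and 7.24% of all genes. The smallest p values belonged to Vgll1, a TEAD cofactor measured near the floor (0.62, SE 0.27), to Tead3 (-0.65, SE 0.32) and to Runx1 (-0.25, SE 0.16). Tead3 had a lower mean in the libraries labelled Fgf10+/-, and measured 5.60, 5.02, 4.74 and 4.28 in them and 5.25, 6.06, 5.81 and 5.09 in wild-type libraries (exact permutation p = 0.114; limma adjusted p = 0.516). Its difference was -0.80 without wild-type replicate 4 (SE 0.34; limma unadjusted p = 0.0491, adjusted p = 0.390). Its groups overlapped through 3 libraries, replicate 1 of those labelled Fgf10+/- and wild-type replicates 1 and 4.

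Of 18 further genes of a published YAP/TAZ target signature, which was drawn up from human tumours, the libraries labelled Fgf10+/- had the higher mean in 11 and the lower in 7, with a median of 0.01. In 3 of them the unadjusted p was under 0.05, 3 higher and 0 lower, where 4.74% of all genes were higher, and 0 passed the adjusted p. The count without wild-type replicate 4 was 6, all higher, beside 5.51% of all genes, with a median of 0.086. Nt5e, the cell surface enzyme that makes adenosine, measured 8.30, 8.26, 8.32 and 8.58 in the libraries labelled Fgf10+/- and 7.41, 7.63, 7.78 and 8.02 in wild-type libraries, a difference of 0.66 (SE 0.15; limma adjusted p = 0.191). Ccdc80, a secreted matrix protein, measured 10.33, 10.36, 10.26 and 10.49 in the libraries labelled Fgf10+/- and 9.37, 9.65, 9.32 and 10.13 in wild-type libraries, a difference of 0.74 (SE 0.19; limma adjusted p = 0.215). Asap1, a regulator of ARF GTPases and focal adhesions, differed by 0.35 (SE 0.11; limma adjusted p = 0.286). The groups did not overlap for these 3 of the 18 genes, where 2.99% of all genes were higher without overlap. The 3 were named for having the smallest p of the list. Fibroblast markers moved with them: the libraries labelled Fgf10+/- had the higher mean in 9 of 12, with a median of 0.29, and their mean deviation was 0.12 to 0.16 in the libraries labelled Fgf10+/- and -0.30 to 0.12 in wild-type libraries. Without wild-type replicate 4 the fibroblast median was 0.39, and the libraries labelled Fgf10+/- had the higher mean in 10 of 12. The summed linear signal of the fibroblast markers ranged from 91414 to 107998 in the libraries labelled Fgf10+/- and from 73261 to 93450 in wild-type libraries. Their part in the result was not tested.

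The relatives of the target genes were also measured. Ccn5, a CCN protein of smooth muscle and fibroblasts, measured 6.26, 6.25, 6.19 and 6.62 in the libraries labelled Fgf10+/- and 5.55, 5.17, 4.28 and 6.32 in wild-type libraries, a difference of 1.00 (SE 0.38; limma unadjusted p = 0.0307, adjusted p = 0.394). Wild-type replicate 4 lay within the other group here too, and without it the difference was 1.33 (SE 0.30; limma adjusted p = 0.157). Ccn4 differed by 0.26 (SE 0.11; limma adjusted p = 0.461) without overlap. Ankrd2, the relative of Ankrd1 in skeletal muscle, differed by 0.19 (SE 0.27; limma adjusted p = 0.849) and was at 4.08 in wild-type replicate 4, the library with the skeletal muscle signal. Of these 6 relatives, 1 had an unadjusted p under 0.05, 16.7% of the list beside 11% of all genes, and the median difference was 0.18. Groups without overlap occurred in 1 of the 6, Ccn4, beside 7.39% of all genes.

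Actin and SRF/MRTF target genes share many stimuli with YAP. Of 17 measured, the libraries labelled Fgf10+/- had the higher mean in 14 and the lower in 3, with a median of 0.09. In 3 the unadjusted p was under 0.05, 17.6% of the list, beside 11% of all genes. Without wild-type replicate 4 the median was 0.14. Under 0.05 there were then 1 gene higher (Acta2) and 1 lower (Tpm1), beside 5.51% and 7.24% of all genes. Acta2 (0.23, SE 0.09; limma adjusted p = 0.407) and Actg2 (0.22, SE 0.10; limma adjusted p = 0.452), the smooth muscle actins, were higher and Tpm1, a tropomyosin of smooth and heart muscle, was lower (-0.86, SE 0.20; limma adjusted p = 0.199), each without overlap. Of the 17 genes, 5 had groups that did not overlap, beside 7.39% of all genes. The cardiac list given above was lower in the same libraries as Tpm1, and its part in that difference was not tested. Immediate early genes, a class to which Ccn1 belongs in cultured cells, had a median of -0.38 over 20 genes, 18 with a lower mean, while Ccn1 itself was at 0.089. In 4 of them the unadjusted p was under 0.05, all lower, beside 6.29% of all genes. Without wild-type replicate 4 there were 6, all lower, beside 7.24% of all genes. With all arrays Btg2 (-0.55), Arc (-0.66) and Jund (-0.41) had the smallest p, and 0 passed the adjusted p. Mitotic genes, whose transcripts YAP can raise in growing cells, had a median of 0.69 over 14 genes. In 13 of these the unadjusted p was under 0.05, all higher, beside 4.74% of all genes, with Bub1 (1.08), Ube2c (0.78) and Cdk1 (0.90) at the smallest p and again 0 past the adjusted p.

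**Figure D4:**
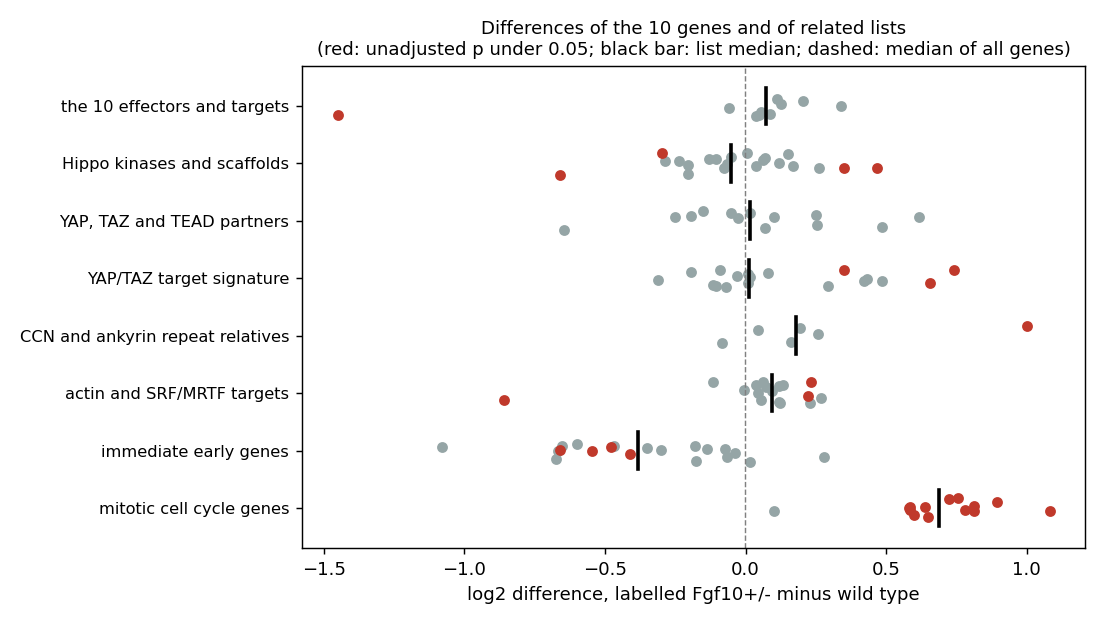
Log2 difference (horizontal axis, libraries labelled Fgf10+/- minus wild type) of each gene in the set of 10 and in 7 related lists, with list medians as black bars, genes at an unadjusted p under 0.05 in red and the median of all genes dashed. The 10 genes lie between -0.060 (Lats1) and 0.34 (Lats2) except Ankrd1 at -1.45, and the medians of the immediate early and mitotic lists are -0.38 and 0.69.

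Markers of alveolar type 1 cells, the cells in whose formation YAP and TAZ are known to act, had a median of -0.26 over 15 genes, 13 with a lower mean in the libraries labelled Fgf10+/-. In 7 the unadjusted p was under 0.05, 6 lower and 1 higher (Igfbp2, at 1.37), beside 6.29% and 4.74% of all genes. The summed linear signal of the list ranged from 43010 to 47301 in the libraries labelled Fgf10+/- and from 50597 to 53689 in wild-type libraries. Its mean log2 deviation overlapped, at -0.17 to 0.042 in the libraries labelled Fgf10+/- and 0.038 to 0.12 in wild-type libraries. Yap1 and Wwtr1 thus had near equal means beside an alveolar type 1 list with lower means, and the 2 were not tested against each other. The other epithelial lists had lower medians still: -0.70 for alveolar type 2 cells (10 of 12 markers at an unadjusted p under 0.05, all lower), -0.63 for ciliated cells (7 of 9, all lower) and -0.36 for club cells (4 of 8, all lower). Beside these counts, 6.29% of all genes were lower. Sftpc and the club cell marker Scgb1a1 (15.93 and 15.96) lay near the top of the scale, where a difference may not show. Endothelial markers had a median of 0.06 over 12 genes, and 0 had an unadjusted p under 0.05, beside 11% of all genes.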

How the data were processed

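Per the labels' protocols, lung RNA was column-purified, amplified and carried a Cy3 label. The table holds 62976 array features in 8 columns of log2 signal, as deposited. The values had been quantile normalized by the authors, as the values show: sorted values differed by at most 0.0042 between arrays. The submitters' processing notes name limma. Background correction and spot flagging stay unstated, so differences of dim features may be compressed.

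Features were named from the platform annotation (31465 with 1 symbol, 0 with several), and 2933 symbols were updated by transcript accession against RefSeq (29050 features matched). Without the 40 named features that had a blank there were 31425, for 20842 genes, and the brightest feature stood for its gene. No 2 arrays were identical.

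The test was limma 3.58.1 in R 4.3.3 (lmFit on group, eBayes, two-sided, Benjamini-Hochberg over all genes, threshold 0.05), tested on simulated data. Standard errors and intervals are limma's. For single members an exact permutation test over 70 assignments stood beside it (Python 3.11.15). The submitters call the samples independent, and no batch is given, so none was tested. The number of arrays, 4 per group, limits the precision. The members and lists were chosen with earlier results of these data known. Named were all members, Fgf10, the 3 genes of each pathway list with the smallest p and the 3 nearest profiles of each target gene. Eva1c, Cirbp and Sphk1 came from that rule. Fits without wild-type replicate 4 of the lists, the named list genes and the dimmer member features were chosen after seeing the data. Figures were drawn with matplotlib 3.10.9.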

Additional observations from a re-analysis of the deposited data

Results flagged for a closer look

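On the brightest Tead1 feature, replicate 3 of the libraries labelled Fgf10+/- was at 10.34, apart from the other 3 of its group (10.69, 10.69 and 10.72). Its gap to the nearest of them was 0.925 of the group's range, above Dixon's critical value for 4 samples. It was the only one of 30 groups checked (14 features of the 10 genes and Fgf10, each in 2 groups), and chance flags about 1 in 20 such groups. Without that library the Tead1 difference was 0.20 and did not pass (limma adjusted p = 0.609).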

How the results depend on the processing

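None of the 10 members passed an adjusted p of 0.05 in any of the 17 alternatives run. The count over all genes was 0 in the reported fit, 288 with genes under the median signal left out, 414 with a variance trend and robust settings, 3 with array weights, and between 0 and 1 with each replicate left out, the 1 without wild-type replicate 4. The cause was not tested. Ankrd1, Ccn2, Tead1 and Tead2 kept their direction throughout. With each replicate left out in turn, Yap1 ran from -0.025 to 0.097, Wwtr1 from -0.023 to 0.15, Tead4 from -0.11 to 0.33, Lats1 from -0.21 to 0.059, Ccn1 from -0.028 to 0.19 and Ankrd1 from -1.93 to -1.19. Tead4 was at -0.025 with array weights. With 2 libraries left out, wild-type replicate 4 and number 3 of those labelled Fgf10+/-, Tead4 was at -0.13 and Ccn1 at -0.089. The dim Lats2 feature alone gave -0.0079. The reported fit did not pair samples by replicate number. Deviations of same-numbered libraries correlated at 0.11, 0.023, 0.018 and 0.078, which does not exclude a pairing. With the replicate block 0 genes passed, and the adjusted p was 0.343 for Ankrd1 and 0.337 for Lats2 (unadjusted 0.0181 by limma). The members at an unadjusted p under 0.05 numbered 2 in place of 1 in 7 of the alternatives. Dim features (Tead4, Lats1 and the second features of Lats2 and Tead1) limit what can be seen of those transcripts.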
